A study of Mus musculus with 9 samples.

Results

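Messenger RNA levels of 10 genes of calcium and diacylglycerol signalling were measured in cultured mouse retinal ganglion cells (RGCs), out of 22322 genes in the deposited table. The members were 5 protein kinase C isoforms (Prkca, Prkcb, Prkcd, Prkce and Prkch), all 4 isoforms of CaM kinase II (Camk2a, Camk2b, Camk2d and Camk2g) and the exchange factor Rasgrp3. They were taken by gene symbol and were chosen on the measured levels described here, with Prkcb, Camk2a and Rasgrp3 already known to differ between these groups. Their levels and fold changes are therefore given as a description and without p-values.

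Phospholipase C cuts a membrane lipid into diacylglycerol, which stays in the membrane, and inositol trisphosphate, which releases calcium from the endoplasmic reticulum. The conventional protein kinase C isoforms, alpha (Prkca) and beta (Prkcb), need both calcium and diacylglycerol, whereas the delta, epsilon and eta isoforms (Prkcd, Prkce, Prkch) need diacylglycerol but not calcium. Calcium bound to calmodulin activates CaM kinase II, a ring-shaped kinase known in neurons for its part in synaptic plasticity, and diacylglycerol recruits Rasgrp3 to membranes, where it loads Ras and Rap proteins with GTP.

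The 9 libraries came from wild-type RGCs that were purchased as a cell type and grown in high glucose medium with serum, 3 replicate wells per group. Normal RGCs received no further treatment. Aging RGCs had been exposed to D-galactose, a sugar used to bring on features of senescence in culture. Aging RGCs + USCs medium had been exposed to D-galactose and then to medium conditioned by urine-derived stem cells (USCs), which are human cells grown in a special medium of their own. Substances released by the USCs and the medium in which they grew cannot be told apart in this design. Nothing in the sources used here places the wells in separate cultures, so the standard errors and p-values below measure the spread between wells. Because each library was made from a bulk culture, fewer cells of a type and less RNA per cell cannot be told apart.

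Library totals ran from 18189616 to 22342288 expected counts, the normal libraries holding 19814241 to 22342288, the aging libraries 18189616 to 19556335 and the medium libraries 20238824 to 21054326. Of 12 RGC markers, 5 reached 1 CPM (counts-per-million, scaled by edgeR's TMM factors) in any library, and Pou4f2, Pou4f3 and Atoh7 had 0 counts in all 9 libraries. The neuron markers Rbfox3 and Stmn2 were also at 0 in all of them. The summed RGC markers were 139 to 150 CPM (normal), 99.2 to 103 CPM (aging) and 75.4 to 83.5 CPM (medium), whereas 6 epithelial markers summed to 1047 to 1285 and 8 mesenchymal markers to 2612 to 3224 over all libraries. Of these, 4 epithelial and 5 mesenchymal markers reached 1 CPM in any library. The epithelial markers Krt7 and Cdh1 and the mesenchymal markers Col1a2, Dcn and Lum did not. Rbpms at 897 to 1422 counts, Isl1 at 215 to 437 and Nefl at 313 to 1392 were among the RGC markers present in every library. Nefl shares exon bases with Nefm on the other strand and had fractional counts in all 9 libraries. Sncg at 3 to 7 counts, Slc17a6 at 0 to 4 and Thy1 and Nefh at 0 to 1 stayed under 1 CPM. The RGC, epithelial and mesenchymal lists were thus each present in part, and the name RGCs is used below as the labels give it.

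Sequence is shown for Rasgrp3 because its counts differed most between groups among the members. A further reason is that its deposited units, given further on, imply different transcript lengths in different libraries. The gene lies on the plus strand at chr17:75435896-75529054 (GRCm38), and RefSeq lists 2 starts for it. The bases before each start that lie outside any annotated exon are printed 5′ to 3′ on the plus strand, with capitals for the letters TATAAA read on either strand, here on the opposite strand.

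Rasgrp3, first start, chr17:75435655-75435895: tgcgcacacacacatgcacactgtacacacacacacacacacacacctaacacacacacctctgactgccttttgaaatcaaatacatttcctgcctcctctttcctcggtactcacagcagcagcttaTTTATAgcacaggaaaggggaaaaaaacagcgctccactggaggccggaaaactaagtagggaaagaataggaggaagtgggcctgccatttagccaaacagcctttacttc
Rasgrp3, second start, chr17:75465288-75465485: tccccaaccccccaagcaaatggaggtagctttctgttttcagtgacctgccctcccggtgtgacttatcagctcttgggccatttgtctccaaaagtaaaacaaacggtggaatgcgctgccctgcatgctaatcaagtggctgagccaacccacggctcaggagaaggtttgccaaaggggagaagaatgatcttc

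The first Rasgrp3 window held 1 match to TATAAA and the second held 0. These letters occurred in 12.4% of 32851 RefSeq windows of 250 bases before a start (GRCm38.p6), searched on both strands. Neither window held GGGCGG, the GC box, which occurred in 32.7% of all windows. GC content over the full 250 bases was 47.6% at the first start and 52.8% at the second, beside a median of 52.4%. Windows were found for 6 of the 10 members. The windows of Prkca and Prkcb were richer in GC, at 76.8% and 65.2%, and held 2 and 1 GC boxes. The Prkcb window began inside an annotated exon, with 0 bases before it. The 2 windows of Prkcd held 50.8% GC with 0 GC boxes and 67.6% with 4. Those of Camk2b and Camk2d held 78.4% and 68.4%, with 3 GC boxes each.

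Rasgrp3 was lower in aging RGCs than in normal RGCs and lower again in aging RGCs + USCs medium. Its CPM levels were 15.2, 13.4 and 17.3 in the normal libraries. They were 7.36, 5.72 and 7.60 in the aging libraries and 0.873, 0.893 and 1.13 in the medium libraries. The 3 groups did not overlap, and the medium values rested on 17, 18 and 22 counts. The level was 2.22-fold lower in aging than in normal RGCs (log2 fold change -1.15, SE 0.128), 7.11-fold lower in the medium group than in aging RGCs (-2.83, SE 0.198) and 15.8-fold lower than in normal RGCs (-3.98, SE 0.178).

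Prkcb, the beta isoform of the conventional kinases, lies at chr7:122288751-122634402 on the plus strand. Its normal libraries held 23.2, 23.0 and 23.2 CPM, its aging libraries 14.8, 16.6 and 16.2 CPM, and its medium libraries 2.98, 2.63 and 4.10 CPM. Again no group overlapped another, and the 3 normal wells differed by less than those of either other group. Prkcb was 1.46-fold lower in aging than in normal RGCs (log2 fold change -0.55, SE 0.0918) and 4.90-fold lower in the medium group than in aging RGCs (-2.29, SE 0.123). Against normal RGCs the medium group was 7.16-fold lower (-2.84, SE 0.117).

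Prkca, the alpha isoform, moved differently. It measured 66.2, 67.9 and 73.6 CPM in normal RGCs, 79.8, 85.1 and 77.3 CPM in aging RGCs and 55.6, 53.2 and 52.2 CPM in the medium group. Aging wells were thus the highest and medium wells the lowest, with no overlap between groups. Its log2 fold change was 0.22 (SE 0.0502) for aging against normal RGCs and -0.59 (SE 0.0518) for the medium group against aging RGCs. Prkca shares exon bases with Apoh on the other strand, and whether counting used strand is not given in the sources used here, so reads of this pair cannot be told apart. None of the 10 members had a fractional count in any library.

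Among the isoforms that do not need calcium, Prkcd was the most abundant and Prkch was close to the detection limit. Prkcd measured 68.0, 67.4 and 67.5 CPM in normal RGCs, 58.0, 53.8 and 56.1 CPM in aging RGCs and 57.2, 55.5 and 57.5 CPM in the medium group. It was lower in both treated groups than in normal RGCs (log2 fold change -0.27, SE 0.0477, and -0.25, SE 0.0475), and those groups overlapped each other, with a difference of 0.02 (95% interval -0.07 to 0.12). Prkce measured 17.6, 19.2 and 17.5 CPM in normal RGCs, 15.5, 17.98 and 16.7 CPM in aging RGCs and 18.6, 21.1 and 20.2 CPM in the medium group. It was the only member with every medium well above every aging well (0.26, SE 0.0835), while normal RGCs overlapped both. Prkce shares exon bases with the same-strand gene AC154542.1. Prkch did not pass the filter on low counts, with 6 to 14 counts in the normal libraries, 3 to 6 in the aging libraries and 2 to 6 in the medium libraries, and its groups overlapped.

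**Figure D1:**
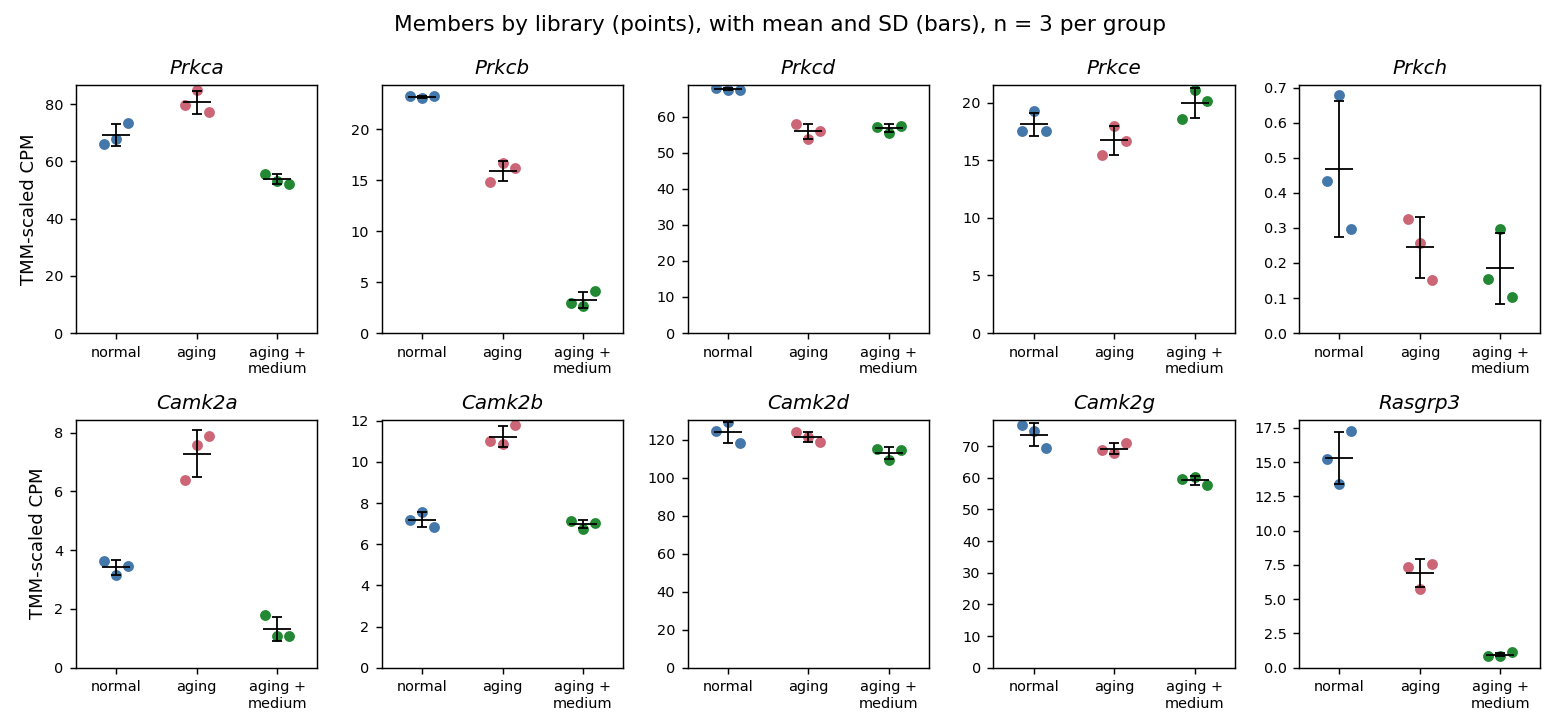
Levels of the 10 members in each of the 9 libraries, as TMM-scaled CPM on an axis from 0 in each panel, with points for wells and bars for the mean and SD of 3 wells. Rasgrp3 and Prkcb step down over the 3 groups, whereas Camk2a is highest in aging RGCs at 6.38 to 7.90 CPM.

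In the CaM kinase II family the alpha and beta isoforms, which are the ones best known from brain, were higher in aging RGCs than in normal RGCs and lower again in the medium group. Camk2a, at chr18:60925618-60988152 on the plus strand, measured 3.64, 3.15 and 3.45 CPM in normal RGCs, 6.38, 7.57 and 7.90 CPM in aging RGCs and 1.80, 1.09 and 1.08 CPM in the medium group. Its groups did not overlap, and its medium wells rested on 35, 22 and 21 counts. It was 2.13-fold higher in aging than in normal RGCs (log2 fold change 1.09, SE 0.172), 5.50-fold lower in the medium group than in aging RGCs (-2.46, SE 0.203) and 2.58-fold lower there than in normal RGCs (-1.37, SE 0.220).

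Camk2b measured 7.19, 7.56 and 6.86 CPM in normal RGCs, 11.03, 10.9 and 11.8 CPM in aging RGCs and 7.14, 6.75 and 7.02 CPM in the medium group. Aging wells lay above both other groups, by a log2 fold change of 0.64 (SE 0.112) over normal RGCs, and the medium group lay below them by -0.69 (SE 0.114). The medium and normal wells overlapped, with a difference of -0.05 (95% interval -0.28 to 0.18).

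The delta and gamma isoforms, which most cell types express, were lowest in the medium group. Camk2d measured 124.6, 129.1 and 118.1 CPM in normal RGCs, 123.8, 121.5 and 118.7 CPM in aging RGCs and 115.1, 109.1 and 114.6 CPM in the medium group. Camk2g measured 76.8, 74.7 and 69.5 CPM in normal RGCs, 68.8, 67.7 and 71.0 CPM in aging RGCs and 59.5, 60.3 and 57.7 CPM in the medium group. For both genes normal and aging wells overlapped and every medium well lay below every other well. The log2 fold change for the medium group against aging RGCs was -0.10 (SE 0.0413) for Camk2d and -0.23 (SE 0.0490) for Camk2g. Against normal RGCs it was -0.13 (SE 0.0410) for Camk2d and -0.32 (SE 0.0483) for Camk2g.

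Past a 2-fold difference and an adjusted p under 0.05, aging against normal RGCs held 1 of the 9 members tested higher (Camk2a) and 1 lower (Rasgrp3), beside 1.09% and 1.56% of the 12145 genes tested. The medium group against aging RGCs held 0 higher and 3 lower (Prkcb, Camk2a and Rasgrp3), beside 1.24% and 4.21% of all genes. At an adjusted p under 0.05 alone, 3 members were higher and 3 lower in aging RGCs, beside 23.6% and 23.0% of all genes, and 1 was higher and 7 lower in the medium group, beside 27.1% and 26.0%. Since the members were chosen on these contrasts, nothing is read from these counts. The median log2 fold change of the 9 members was -0.09 in aging against normal RGCs, -0.59 in the medium group against aging RGCs and -0.32 in the medium group against normal RGCs. Over all genes the corresponding medians were 0.0018, -0.0067 and -0.0132.

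**Figure D2:**
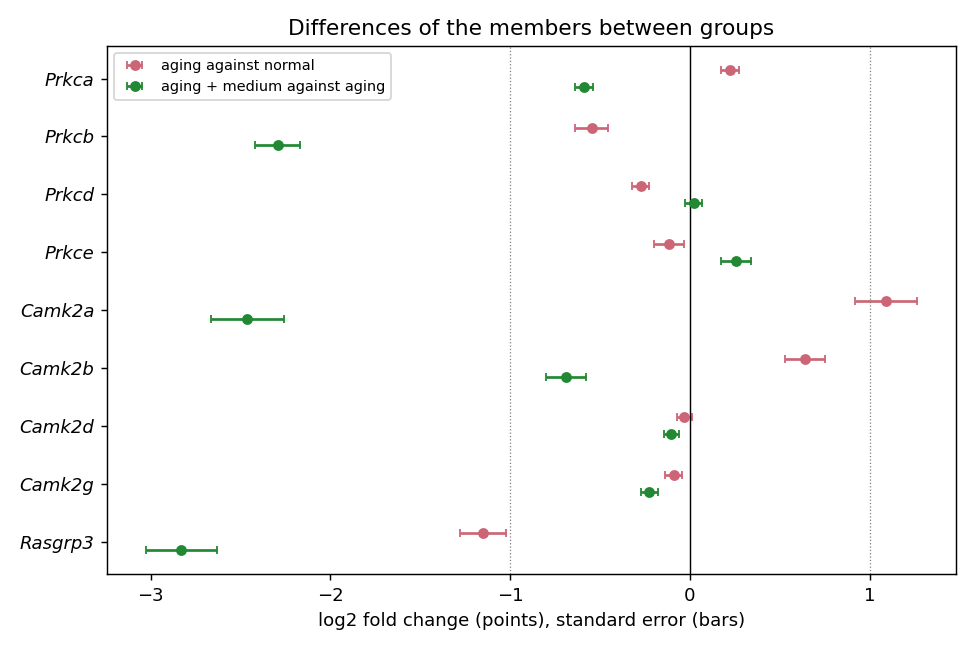
Log2 fold changes of the 9 members that passed the filter on low counts, from the edgeR fit, with bars for the standard error, in 2 contrasts (aging against normal, medium against aging). Rasgrp3 has the most negative value in each contrast, at -1.15 and -2.83, and Camk2a is the member above 1 in aging against normal RGCs.

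Levels of different genes were compared in FPKM, which is scaled by transcript length. In normal RGCs the order was Camk2d (32.3), Camk2g (28.5), Prkcd (25.3), Prkca (14.1), Prkcb (8.30), Rasgrp3 (3.37), Prkce (3.36), Camk2b (2.66), Camk2a (1.19) and Prkch (0.14). Camk2d and Camk2g overlapped over their 3 wells, as did Rasgrp3 and Prkce, and the other neighbours did not. In aging RGCs the first 5 genes kept their places, while Rasgrp3 at 1.66 FPKM ranked below Camk2b at 3.98, Prkce at 2.96 and Camk2a at 2.5, the last pair overlapping. In the medium group Prkcb at 1.03 FPKM ranked below Prkce at 3.32 and Camk2b at 2.32, and Camk2a at 0.403 overlapped Rasgrp3 at 0.39.

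The make-up of each family followed from these levels. Prkcb gave 37.2% ± 2.39 (SD, n = 3) of the summed FPKM of Prkca and Prkcb in normal RGCs, 26.0% ± 1.18 in aging RGCs and 8.27% ± 2.02 in the medium group. The sum of this pair was 22.4 ± 1.53 FPKM in normal RGCs, 21.6 ± 1.09 in aging RGCs and 12.5 ± 0.204 in the medium group. Of the 5 protein kinase C members together, Prkcd held 49.4% in normal RGCs, 45.6% in aging RGCs and 55.4% in the medium group, and Prkce held 6.57%, 6.54% and 9.32%. In CaM kinase II, Camk2d held 50.0%, 48.9% and 51.7% and Camk2g 44.1%, 41.0% and 43.3% of the family sum, which was 64.6 FPKM in normal RGCs, 64.2 in aging RGCs and 54.3 in the medium group. Camk2a was a small part of it, at 1.84% ± 0.546, 3.90% ± 0.849 and 0.738% ± 0.367. The Camk2a difference was therefore large as a fold and small as an amount of the family's RNA.

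**Figure D3:**
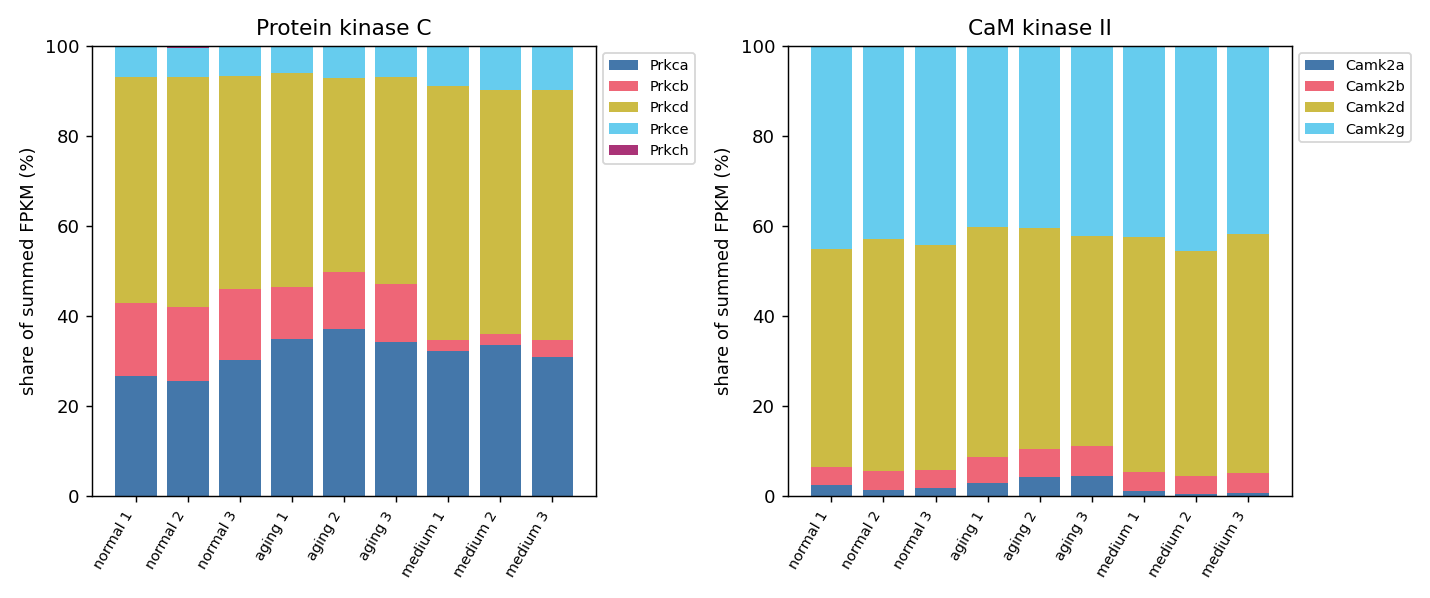
Share of each isoform in the summed FPKM of its family, in percent, for the protein kinase C members and CaM kinase II in each library. The Prkcb share narrows from 16.2% of the protein kinase C sum (normal) to 12.4% (aging) and 2.90% (medium), while Camk2d and Camk2g hold most of the CaM kinase II sum in all 9 libraries.

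For Rasgrp3 the 2 deposited units gave different orders of the wells in the aging and medium groups. FPKM divides counts by a transcript length, so the length implied by a count and its FPKM can be computed. For Rasgrp3 it was 4638 to 4726 bases in 7 libraries, 3344 bases in aging replicate 2 and 1125 bases in medium replicate 2. That medium library held 18 counts, between the 17 and 22 of the other medium libraries, and yet its FPKM was 0.76 beside 0.18 and 0.23, so the mean of 0.39 FPKM in the medium group rests largely on that well. Aging replicate 2 had the fewest Rasgrp3 counts of its group, at 111 beside 136 and 150, and the highest FPKM, at 1.73 beside 1.60 and 1.64. GENCODE lists 7 Rasgrp3 transcripts, of 390 to 4720 bases. The longest implied length was 4.20 times the shortest for Rasgrp3 and 1.89 times for Camk2a, whose 7 transcripts span 499 to 4970 bases, and 1.04 to 1.25 times for the other 8 members. Of 11291 genes with at least 10 counts in every library, 4.46% had a ratio over 1.5, and the median ratio was 1.04. For the medium group against aging RGCs, limma on log2(FPKM + 1) gave -0.96 for Rasgrp3, -1.32 for Camk2a and -1.71 for Prkcb, and on log2(FPKM + 0.1) it gave -2.03, -2.43 and -2.35, so Rasgrp3 led the members in counts and not in FPKM. Which starts or transcripts gave the reads was not tested.

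**Figure D4:**
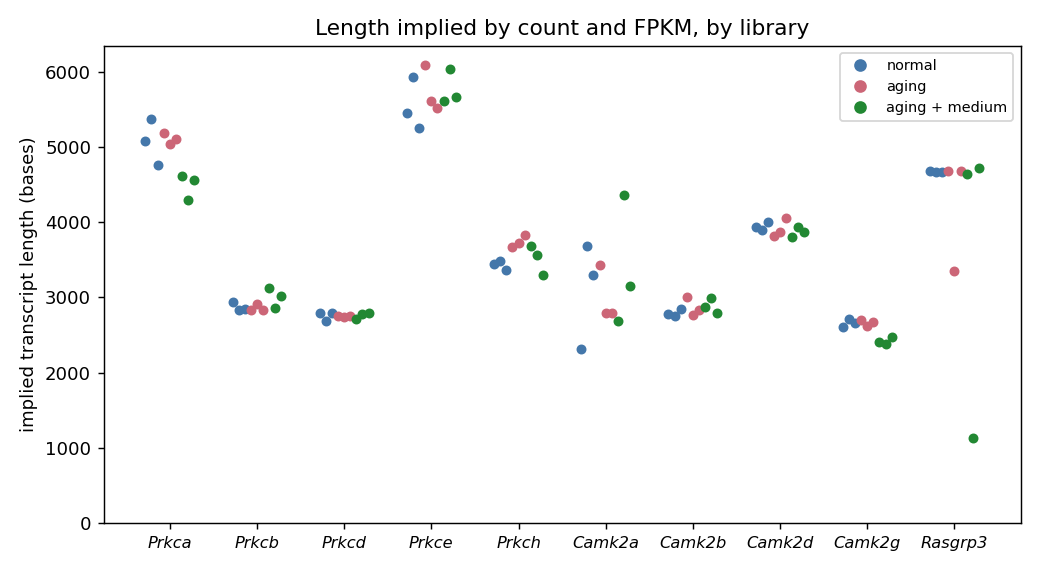
Transcript length in bases implied by each member's expected count and FPKM in each library, with 1 point per well coloured by group. Rasgrp3 drops to 1125 bases in medium replicate 2 and 3344 in aging replicate 2, while Prkcd stays within a ratio of 1.04.

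The other genes of the pathway were counted beside the shares of all genes. Of 86 such genes in 8 lists, 69 passed the filter on low counts. In the quasi-likelihood test of edgeR, with p-values adjusted by Benjamini-Hochberg over all genes tested, 9 of them (13.0%) rose and 22 (31.9%) fell in aging against normal RGCs, beside 23.6% and 23.0% of all genes, and 0 passed 2-fold. In the medium group against aging RGCs 16 (23.2%) rose and 23 (33.3%) fell, beside 27.1% and 26.0% of all genes, and 4 (5.80%) fell past 2-fold, beside 4.21%. Without TMM factors the medium group held 11 higher and 28 lower. The median log2 fold change over the 69 genes was -0.03 and -0.07. These lists were made with earlier results of the same libraries known, so nothing is read from these counts. The counts by list below stand beside the same shares of all genes. Those were 23.6% higher and 23.0% lower in aging RGCs, and 27.1% and 26.0% in the medium group. Nothing is read from the count of a single list.

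Upstream of the members, phospholipases C make diacylglycerol. Of 9 tested, 1 rose and 3 fell in aging RGCs, and 0 rose and 5 fell in the medium group. Plcd3 fell from 35.1 ± 4.21 CPM in normal RGCs to 24.8 ± 0.660 in aging RGCs (edgeR, log2 fold change -0.51, Benjamini-Hochberg adjusted p = 2.03e-06). Plce1, a Ras-regulated phospholipase, fell from 2.41 ± 0.540 CPM in aging RGCs to 0.893 ± 0.260 in the medium group (edgeR, -1.42, adjusted p = 0.000226). Plcd4 also fell past 2-fold there (edgeR, -2.44, adjusted p = 0.00697) but was under 1 CPM in every library, had fractional counts in 5 of them, and was no longer called without aging replicate 1 (adjusted p = 0.0567).

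Diacylglycerol kinases remove the lipid. Of 6 tested, 1 rose and 1 fell in aging RGCs, and 1 rose and 3 fell in the medium group. Dgka, the alpha kinase, fell from 13.1 ± 0.542 to 8.24 ± 0.759 CPM in aging RGCs (edgeR, log2 fold change -0.67, adjusted p = 5.28e-06) and was at 13.2 ± 0.682 CPM in the medium group (0.68 against aging RGCs, adjusted p = 3.27e-06). Dgkz, the zeta kinase, fell from 90.3 ± 4.21 to 65.0 ± 3.59 CPM in the medium group (edgeR, -0.48, adjusted p = 7.29e-09).

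Of 10 tested genes of calcium release and entry, 1 rose and 3 fell in aging RGCs, and 0 rose and 6 fell in the medium group. Itpr2, an inositol trisphosphate receptor, fell from 67.6 ± 6.07 to 44.2 ± 1.303 CPM in aging RGCs (edgeR, log2 fold change -0.62, adjusted p = 1.62e-09). Orai2, a subunit of store-operated calcium channels, fell from 38.1 ± 1.76 CPM in aging RGCs to 20.7 ± 1.07 in the medium group (edgeR, -0.88, adjusted p = 1.13e-11).

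Of 9 tested calmodulin genes and CaM kinase regulators, 2 rose and 1 fell in aging RGCs, and 2 rose and 1 fell in the medium group. The gene that fell in aging RGCs was Camk2n1, which encodes an inhibitor of CaM kinase II, from 7.01 ± 0.274 to 4.12 ± 0.349 CPM (edgeR, log2 fold change -0.76, adjusted p = 0.000136), and it measured 3.63 ± 0.513 CPM in the medium group. The gene that fell in the medium group was Camk1d, a CaM kinase I isoform, from 64.3 ± 2.31 to 40.7 ± 3.08 CPM (edgeR, -0.66, adjusted p = 1.15e-10).

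Of 10 tested genes of calcineurin, the calcium-dependent phosphatase, and its NFAT targets, 1 rose and 4 fell in aging RGCs, and 4 rose and 3 fell in the medium group. Rcan3, a calcineurin regulator, fell from 43.6 ± 0.457 to 31.1 ± 0.986 CPM in aging RGCs (edgeR, log2 fold change -0.49, adjusted p = 1.91e-07). Nfatc2, a transcription factor released by calcineurin, fell from 7.42 ± 0.591 CPM in aging RGCs to 3.52 ± 0.633 in the medium group (edgeR, -1.07, adjusted p = 1.76e-06).

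Among 6 other protein kinase C and protein kinase D genes tested, 0 rose and 1 fell in aging RGCs, and 1 rose and 1 fell in the medium group. Prkd3 fell from 239.0 ± 5.57 to 211.9 ± 0.786 CPM in aging RGCs (edgeR, log2 fold change -0.17, adjusted p = 8.04e-05). Prkci, an atypical isoform that needs neither calcium nor diacylglycerol, rose from 97.0 ± 2.41 CPM in aging RGCs to 125.5 ± 3.16 in the medium group (edgeR, 0.37, adjusted p = 8.55e-09).

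Among Ras exchange factors and the Ras, Rap and Raf genes that follow them, 12 genes other than Rasgrp3 were tested, of which 2 rose and 7 fell in aging RGCs, and 6 rose and 1 fell in the medium group. Rasgrp3 itself was lower again in the medium group.

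Of 7 tested protein kinase C substrates and anchors, 1 rose and 2 fell in aging RGCs, and 2 rose and 3 fell in the medium group. Marcksl1, which encodes a membrane protein phosphorylated by protein kinase C, rose from 76.8 ± 2.20 to 108.2 ± 1.58 CPM in aging RGCs (edgeR, log2 fold change 0.49, adjusted p = 9.77e-11). Akap5, an anchoring protein, fell from 1.25 ± 0.0154 CPM in aging RGCs to 0.561 ± 0.325 in the medium group (edgeR, -1.15, adjusted p = 0.0163). That call was lost without medium replicate 2 (adjusted p = 0.110) or medium replicate 3 (adjusted p = 0.0653).

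The contrasts share the aging libraries, so a gene low in those wells reads as a fall and then a rise. Of the 69 genes, 9 were called lower and then higher (among them Dgka, Ppp3r1, Rap1a, Rap1b, Sos2, Marcks and Rack1) and 5 higher and then lower (among them Plcg2, Dgkz, Nfatc2 and Marcksl1). The higher call in aging RGCs was lost in both limma fits to FPKM for Dgkz (adjusted p = 0.113 in each) and Nfatc2 (adjusted p = 0.0678 and 0.122). It was also lost for Dgkz without normal replicate 2 (adjusted p = 0.0619), normal replicate 3 (0.0936) or aging replicate 3 (0.118), and for Nfatc2 without normal replicate 2 (0.0537). Another 4 were called lower in both contrasts (Itpr2, Atp2a3, Ppp3ca and Rcan3), and 1 was called higher in both. The shares of all genes with these patterns are not given here, so nothing is read from the pattern counts.

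**Figure D5:**
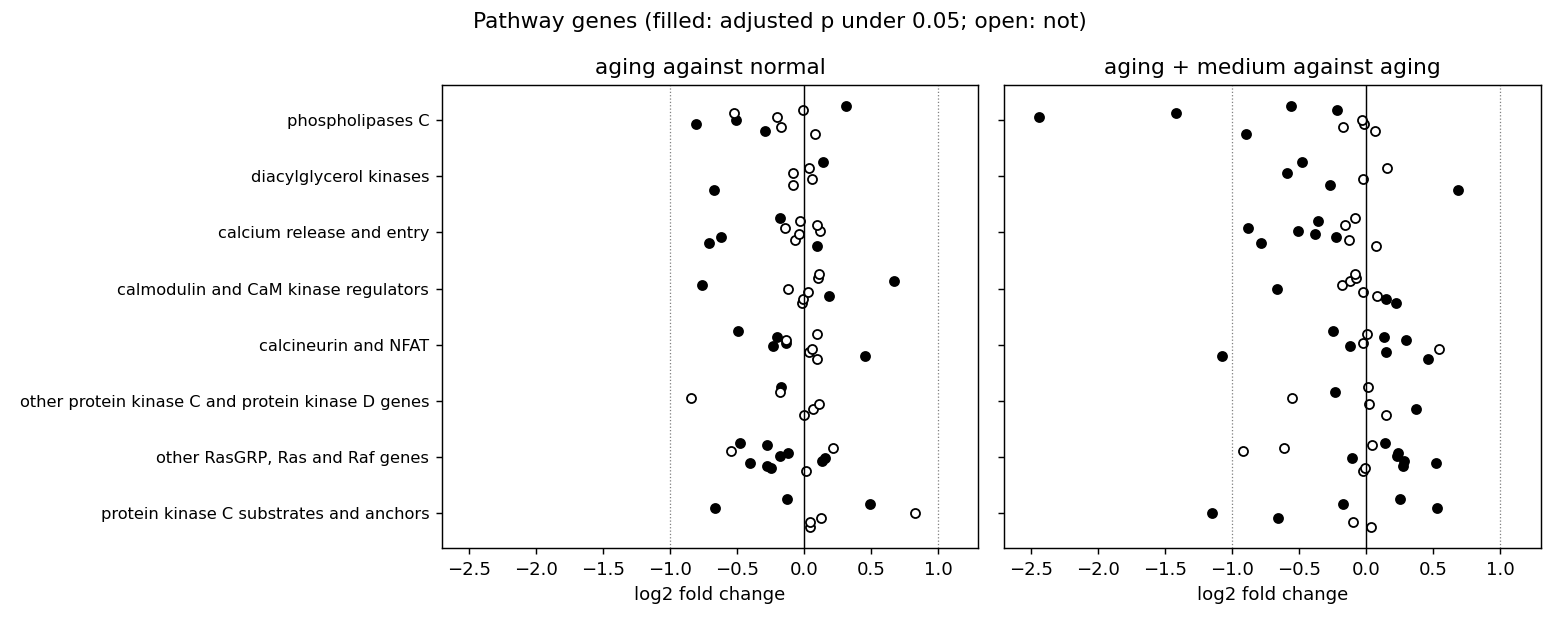
Log2 fold changes of the 69 pathway genes tested, by list, with 1 panel for each of the 2 contrasts, filled points for an adjusted p under 0.05 and dotted lines at 2-fold. The 4 genes that fell past 2-fold in the medium group are Plcd4, Plce1, Nfatc2 and Akap5.

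Genes whose levels most resembled the 3 leading members over the 9 libraries were found by Pearson's r of log2 CPM, given as a description because the points share 3 groups of 3 wells. For Rasgrp3 they were Mbtd1 (0.997), Edil3 (0.996) and Gstm1 (0.996). For Prkcb they were Stc1 (0.995), Itih5 (0.994) and Fam168a (0.993), and Rasgrp3 stood at 0.986 with rank 40. For Camk2a they were Mylk (0.990), Tpcn1 (0.986) and Tnip1 (0.985), while Prkcb stood at 0.774 and Rasgrp3 at 0.707. Fold sizes differed within these sets, Edil3 measuring 24.2, 16.3 and 5.97 CPM in the normal, aging and medium groups, against 15.3, 6.89 and 0.964 CPM for Rasgrp3.

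Markers of other cell types moved with the members in part. Of 13 macrophage markers 8 reached 1 CPM. Cd68 held 833, 884 and 750 counts in the normal libraries, 746, 838 and 807 in the aging libraries and 592, 577 and 678 in the medium libraries. The 12 other markers summed to 867.6, 437 and 502 counts in the normal libraries. Their sums were 228, 70 and 84.9 in the aging libraries and 82, 54 and 453.7 in the medium libraries. Medium replicate 3, the highest of its group in that sum, also had the highest Prkcb and Rasgrp3 of that group. It had the lowest Camk2a (1.08 CPM beside 1.80 and 1.09). Aging replicate 1, the highest of its group in the sum, had the lowest Prkcb there (14.8 CPM beside 16.6 and 16.2). Its Camk2a was also the lowest (6.38 CPM beside 7.57 and 7.90). Its Rasgrp3 lay between those of the other aging wells (7.36 CPM beside 5.72 and 7.60). Normal replicate 1, the highest of its group in the sum, had Prkcb between those of the other normal wells (23.22 CPM beside 23.02 and 23.24). Its Rasgrp3 also lay between theirs (15.2 CPM beside 13.4 and 17.3), and its Camk2a was the highest (3.64 CPM beside 3.15 and 3.45). In the aging wells C1qa, C1qb, C1qc and Aif1 were at 0 counts and Adgre1 at 2, 0 and 1. Ptprc was at 30, 18 and 20 there, Csf1r at 41, 12 and 10.9 and Lyz2 at 118, 23 and 38. Laptm5 was at 20, 7 and 6, Fcer1g at 7, 1 and 1, Tyrobp at 4, 6 and 5 and Itgam at 6, 3 and 3. Without medium replicate 3 Prkcb was lower in the medium group than in aging RGCs by a log2 fold change of -2.5 and Rasgrp3 by -2.95. Of 6 endothelial markers 2 reached 1 CPM and Cldn5 was at 0, with summed levels of 12.1 to 14.1 CPM (normal), 8.56 to 9.41 CPM (aging) and 2.28 to 2.77 CPM (medium). None of 6 lymphocyte and 7 photoreceptor markers reached 1 CPM, and of 5 glial markers 1, Glul, did. The neuron markers summed to 21.8 to 26.0 CPM (normal), 18.1 to 21.01 CPM (aging) and 12.3 to 15.6 CPM (medium). The part of any other cell type in the levels of Prkcb, Camk2a and Rasgrp3 was not tested.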

How the data were processed

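RNA was sequenced from 9 libraries of mRNA enriched by oligo(dT), grouped by their labels into 3 groups of 3. The authors deposited 2 values per gene and library. One deposited value was the expected count, which the authors estimated from the reads of the gene and did not normalize. The other deposited value was the FPKM, which divides by transcript length and depth. The submitters' processing notes name mm10. The aligner and counter were not given in the sources used here. Deposited pathway terms were not used in a test. Coordinates and exon overlaps are from GENCODE M21 (GRCm38), in which all 166 listed genes were matched.

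Expected counts were rounded to whole numbers and tested with edgeR 4.0.16 in R 4.3.3. filterByExpr kept 12145 genes, TMM factors were 0.956 to 1.03, and all 9 libraries entered 1 fit of group means (6 residual degrees of freedom). Quasi-likelihood F tests were used, with Benjamini-Hochberg adjustment at 0.05. CPM values are TMM-scaled. The log2 CPM values used for correlations had a prior count of 2, which was not set for the fitted fold changes. The fit was tested on simulated data.

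The members, gene lists and markers were chosen with earlier results of these data known. All 10 members are named. For Prkcb, Camk2a and Rasgrp3 the 3 genes of highest r are named. From each pathway list every gene past 2-fold is named, and otherwise the gene of smallest adjusted p in each contrast. Most genes called in both contrasts are also named, and some genes are not reported here. Alternatives were DESeq2 1.42.0, limma 3.58.1 on log2(FPKM + 1) and log2(FPKM + 0.1), other scalings and filters, a replicate block, and leaving out each library. Depth was 18189616 to 22342288 counts per library.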

Additional observations from a re-analysis of the deposited data

How the results depend on the processing

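Over the alternatives tried, Rasgrp3, Prkcb and Camk2a kept the direction of all 3 contrasts, but Rasgrp3 in the medium group against aging RGCs moved from -2.83 to -2.03 (log2(FPKM + 0.1)) and -0.96 (log2(FPKM + 1)). Without TMM factors the median log2 fold change of all genes moved from -0.0132 to -0.113 for the medium group against normal RGCs. limma on log2(FPKM + 1), which understates the change of low genes, counted 0 members past 2-fold higher and 0 lower in aging against normal RGCs, where the edgeR counts were 1 and 1, and 2 members lower in the medium group, against 3. log2(FPKM + 0.1) counted 0 lower in aging RGCs. A limit of 1.5-fold gave 2 members higher in aging RGCs and 5 lower in the medium group. Either limma fit called 9 pathway genes higher in the medium group against 16, and the cause was not tested. In CPM, which keeps the length of a transcript, Prkcb held 25.1% of the sum with Prkca in normal RGCs, 16.4% in aging RGCs and 5.69% in the medium group. Leaving out 1 library gave 6 to 10 pathway genes higher and 21 to 24 lower in aging RGCs, and 14 to 17 higher and 20 to 25 lower in the medium group. The lowest of these, 6 against 9, came without normal replicate 2. Rcan3 was no longer called in the medium group by limma (adjusted p = 0.201 and 0.188), nor Akap5 (0.0598) and Plcd4 (0.117) on log2(FPKM + 1). Some uncalled differences changed sign. Prkcd in the medium group against aging RGCs moved from 0.02 to -0.0576 without TMM factors. By limma it was -0.0597 (log2(FPKM + 1)) and -0.0623 (log2(FPKM + 0.1)). Prkce in the medium group against normal RGCs moved from 0.14 to -0.0137 and -0.0175 in the same 2 limma fits. Plcd4 in aging against normal RGCs was -0.64 to 0.12 with 1 library left out, the latter without aging replicate 3, and Prkd3 in the medium group against aging RGCs was -0.0669 without TMM factors, -0.0173 with upper-quartile factors, and -0.0493 (log2(FPKM + 1)) and -0.0504 (log2(FPKM + 0.1)) by limma. Deviations of same-numbered wells from their group means correlated at -0.0368 to 0.0479, which gives no sign of pairing, and a replicate block called 9 pathway genes higher and 22 lower in aging RGCs and 16 higher and 22 lower in the medium group. The 17 to 22 counts of Rasgrp3 in the medium group limit how precisely its fold change is known.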

Other observations

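Among the 17 pathway genes that did not pass the filter on low counts, Dgki, a diacylglycerol kinase, was singled out after its values were seen. It measured 0.130, 0.145 and 0.395 CPM in normal RGCs, 0.487, 0.979 and 0.608 CPM in aging RGCs and 0.154, 0.298 and 0.154 CPM in the medium group. Its aging wells lay above both other groups, the order seen for Camk2a and Camk2b, and the difference was not tested.

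The deposited annotation placed Prkca in 68 KEGG pathways, Prkcb in 66, each CaM kinase II gene in 30, Prkcd in 15, Prkce in 13, Rasgrp3 in 5 and Prkch in 2. The pathway of TRP channel regulation by inflammatory mediators held 9 of the 10 members, all but Rasgrp3. The calcium signaling pathway held 6, Prkca, Prkcb and the 4 CaM kinase II genes.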
